A study of Mus musculus with 15 samples.

Results

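The 7 libraries described here came from tubules dissected out of the kidneys of mice that lack claudin-10a, labelled Cldn10a KO. They compare proximal tubule (n = 3, replicates 4, 5 and 7) with distal convoluted tubule (n = 4, replicates 5 to 8) across all genes, and were chosen by genotype from 15 libraries. The other 8 libraries hold the same segments from wild-type mice (WT, n = 4 each) and serve only as the reference for which segment differences are present with claudin-10a. All mice were kept on a standard diet with no treatment named in the labels, and each pool held 10 proximal convoluted tubules or about 20 distal convoluted tubules of a kidney. The labels give no age, sex or strain, do not describe the knockout allele or the promoter or Cre behind it, and do not say that libraries come from separate animals, so each p-value reflects only how much these samples vary, which may be technical. The question was which genes still mark the proximal and the distal segment when claudin-10a is missing.

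Claudin-10a is a tight junction protein that forms anion-selective pores between the cells of the proximal tubule, beside claudin-2, which forms cation-selective pores. The proximal tubule reclaims most of the filtered sodium, phosphate, glucose, amino acids and protein, makes glucose and ammonia, and secretes drugs and organic anions. The distal convoluted tubule takes up sodium chloride through the thiazide-sensitive cotransporter, sets magnesium and calcium excretion, and is tight to paracellular flow.

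The knockout libraries held 28729339 to 51764746 counts. Mitochondrial ribosomal RNA made up 57.8 to 71.5% of them, and nuclear genes that code for protein 13.7 to 18.5% in proximal libraries and 8.02 to 10.1% in distal ones. Between 17941 and 19880 genes were detected in a library. Pearson r of log2 values was 0.9635 to 0.9793 among proximal libraries, 0.9675 to 0.9791 among distal libraries and 0.7109 to 0.7239 between the segments. Levels below are CPM, a gene's counts set relative to the scaled size of its library, in the order of the replicate numbers, and a log2 difference is always proximal minus distal with its standard error (SE). CPM are not divided by gene length, so a gene is compared only with itself. In dissected tubules, fewer cells of a type and less RNA per cell cannot be told apart.

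The targeted gene was read first. Cldn10 (ENSMUSG00000022132, GRCm38 chr14:118787908-118875489, plus strand) had 0 counts in each of the 3 proximal knockout libraries, which allows at most 0.0836, 0.0746 and 0.0661 CPM by the limit of 3 counts. The distal knockout libraries held 0, 12, 24 and 0 counts, or 0, 0.349, 0.597 and 0 CPM. Their mean was 0.236 ± 0.291 CPM (SD, n = 4), and 0.116 without replicate 7, which holds 24 of these counts. The segments overlapped at 0, and an exact two-sided permutation test gave p = 0.571, where 3 against 4 libraries cannot go below 0.0571. Wild-type proximal libraries held 541 to 1514 counts and wild-type distal libraries 3 to 22. The counts are per gene, so the claudin-10a and claudin-10b transcripts of Cldn10 cannot be told apart here.

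Both segments kept large and separate programmes in the knockout. Of 13834 genes tested, 2827 (20.4%) were higher in proximal and 2795 (20.2%) higher in distal tubule at an adjusted p under 0.05 (limma, Benjamini-Hochberg). The median size of a called difference was 2.0 on the log2 scale in each direction. At least 8-fold differences were called for 996 genes in proximal and 1027 in distal tubule, and at least 32-fold ones for 609 and 567. The 3 proximal libraries lay entirely above or below the 4 distal libraries for 6074 genes (43.9%). The median log2 difference over all genes tested was -0.04. A gene silent in either segment enters this table only through the other, so the counts of list members below are descriptions of the genes that could be tested. Each such count is to be read beside the shares over all genes, 20.4% in proximal and 20.2% in distal tubule.

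The labelled segments were read from their own markers. All 13 proximal tubule markers were higher in proximal tubule, with a summed level of 4591 to 5189 CPM in proximal and 8.74 to 17 CPM in distal libraries. All 11 distal convoluted tubule markers were higher in distal tubule, at 2999 to 3516 CPM in distal and 5.64 to 8.17 CPM in proximal libraries. Distal markers in proximal libraries thus stood at 0.22 ± 0.0419% of their own segment's level (SD, n = 3), and proximal markers in distal libraries at 0.265 ± 0.0703% (SD, n = 4).

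**Figure D1:**
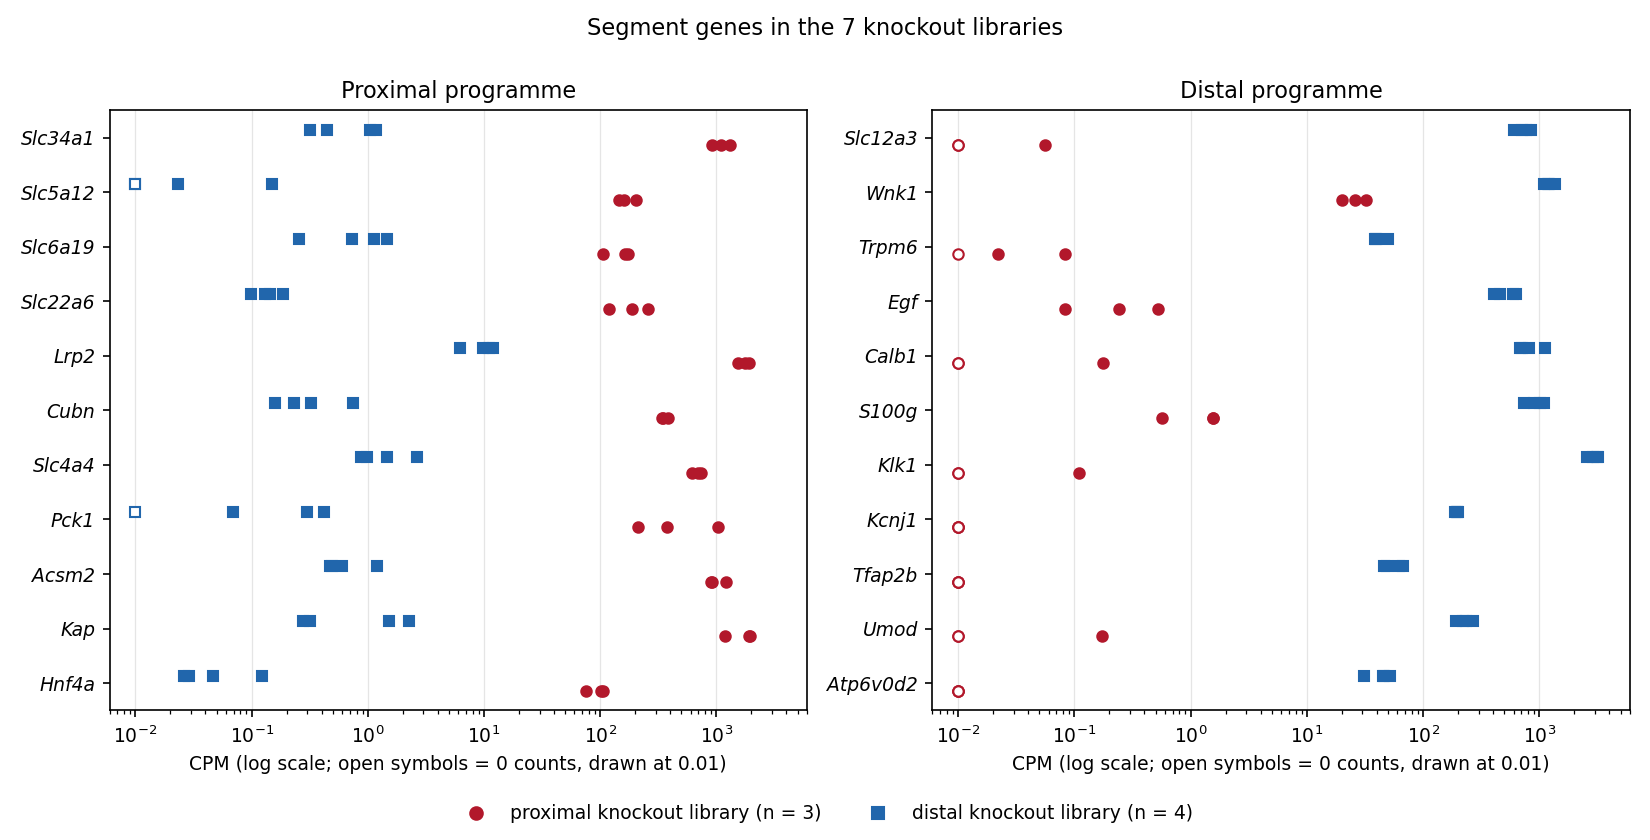
CPM on a log axis of 11 proximal (left) and 11 distal (right) genes in each knockout library, with circles for the 3 proximal and squares for the 4 distal libraries and open symbols for 0 counts. The segments do not overlap for any gene shown, from Slc34a1 (924 to 1298 against 0.32 to 1.18 CPM) to Klk1 (0 to 0.11 against 2584 to 3222 CPM).

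Carriers of phosphate, glucose, sulfate and carboxylates were mostly proximal in the knockout. Slc34a1, the main sodium-phosphate cotransporter of the proximal brush border, was at 1098, 924 and 1298 CPM in proximal and 0.446, 0.32, 1.04 and 1.18 CPM in distal libraries. Every proximal library lay above every distal library, with a log2 difference of 10.65 ± 0.39 (SE; adjusted p = 2.5e-10, limma) against 10.38 in wild type. Slc5a12, a sodium-coupled lactate carrier, was at 146, 204 and 160 CPM against 0, 0, 0.149 and 0.0231 CPM. Slc13a3, a dicarboxylate carrier, was at 145, 80.6 and 190 CPM against 0.0461 to 0.158 CPM. Slc5a2, the high-capacity glucose carrier SGLT2 (named after its values were seen), was at 26.7, 33.7 and 43.5 CPM against 0, 0.0291, 0.0746 and 0 CPM. All 16 listed carriers of these solutes could be tested, of which 13 were higher in proximal tubule. The list's median log2 difference was 9.50, or 9.0 with carriers uncounted in a segment set at the bound that 3 counts allow. The exception was Slc34a2, a phosphate cotransporter of other epithelia, at 0.0836, 0.0994 and 0.22 CPM in proximal and 0.348 to 0.604 CPM in distal libraries. Its call (-1.88, adjusted p = 0.0266, limma) was lost without proximal replicate 4, 5 or 7, where the adjusted p lay between 0.0613 and 0.111. Slc20a2 and Slc5a1 did not pass the test (0.55 and 0.78, adjusted p = 0.0725 and 0.0545).

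Amino acid and organic ion carriers followed the same pattern. Each of the 15 testable amino acid carriers, of 17 listed, was higher in proximal tubule, with a median log2 difference of 7.61 (7.16 with bounds). Slc6a19, the neutral amino acid carrier B0AT1, was at 164, 106 and 173 CPM against 1.13, 0.727, 1.47 and 0.254 CPM (7.61 ± 0.45, adjusted p = 1.55e-08). Cltrn, the collectrin that brings such carriers to the membrane, was at 727, 326 and 672 CPM against 2.76 to 6.78 CPM. Slc3a1, the partner subunit of the cystine carrier, was at 91.3, 73.7 and 64.6 CPM against 0 to 0.116 CPM. Both Cltrn and Slc3a1 were therefore separated from the distal libraries by well over their spread, at 6.93 ± 0.33 and 10.57 ± 0.72. Of 28 listed organic anion, cation and drug carriers 24 could be tested, 23 of them were higher in proximal tubule, and the median was 8.33. Without proximal replicate 7, where the filter asks for fewer libraries, all 28 could be tested and 27 were higher in proximal tubule. Slc22a6 (OAT1), which loads organic anions from the blood side, was at 189, 120 and 256 CPM against 0.0995 to 0.185 CPM. Slc22a8 (OAT3), with the same role, was at 182, 164 and 216 CPM against 0.0263 to 0.224 CPM. Abcc2, a drug efflux pump, was at 86.6, 128 and 91.1 CPM against 0 to 0.199 CPM. Slc47a1 (MATE1), which extrudes organic cations into the lumen, was at 108, 87.2 and 146 CPM against 0 to 0.0525 CPM. The exception was Slc2a9, a urate carrier, at 2.54, 1.04 and 2.64 CPM in proximal and 23.6, 16.4, 16.2 and 24.8 CPM in distal libraries (-3.36 ± 0.34, adjusted p = 1.81e-06).

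Most genes of protein uptake and acid-base transport were higher in proximal tubule. Lrp2, the endocytic receptor megalin, was at 1761, 1899 and 1545 CPM in proximal and 6.2, 9.74, 12 and 11 CPM in distal libraries (7.52 ± 0.20, adjusted p = 3.53e-11). Its partner Cubn was at 380, 345 and 340 CPM against 0.158 to 0.746 CPM, and their adaptor Dab2 was at 176, 250 and 201 CPM against 7.62 to 18.4 CPM. Of 13 genes of megalin and cubilin uptake, 11 were higher in proximal tubule and 2, Ocrl among them, were not called, with a median of 2.39. Slc4a4, the basolateral sodium-bicarbonate cotransporter NBCe1, was at 611, 700 and 735 CPM against 0.872 to 2.64 CPM (8.96 ± 0.30). Car4, a membrane-bound carbonic anhydrase, was at 46.6, 37.9 and 43.4 CPM against 0.867 to 1.54 CPM. Car2, the cytosolic carbonic anhydrase, was at 57.7, 72.1 and 84.9 CPM against 20.2, 57, 35.8 and 37.6 CPM, a difference of 1.02 ± 0.27 (adjusted p = 0.00708) with the segments almost touching. Of 11 testable genes of bicarbonate reabsorption and apical scaffolds, 9 were higher in proximal tubule, with a median of 3.23. Pdzk1, the scaffold that holds brush border carriers, was at 31.3, 44.8 and 36.2 CPM in proximal libraries and had 2 counts in all distal libraries together. The pooled ratio was 2936, with an exact Clopper-Pearson 95% interval for counting error of 812 to 24253.

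Brush border enzymes were likewise proximal in 13 of 14 testable genes, with a median of 7.26 (6.59 with bounds). Miox, a renal inositol oxygenase, was at 374, 242 and 468 CPM against 0 to 0.373 CPM. Mep1a, a meprin peptidase, was at 191, 180 and 168 CPM against 0.0263 to 1.34 CPM. Mme, the peptidase neprilysin, ran the other way at 18, 14.5 and 6.9 CPM against 41.7, 40.4, 40.5 and 45.1 CPM (-1.79 ± 0.26, adjusted p = 5.4e-05). The wild-type value for Mme was -2.16.

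The metabolic programme of the proximal tubule was also present without claudin-10a. Pck1, the rate-setting enzyme of gluconeogenesis, was at 1021, 211 and 373 CPM in proximal and 0.42, 0, 0.299 and 0.0692 CPM in distal libraries. Proximal replicate 4 stood highest for Pck1, and all 3 proximal libraries lay far above the distal ones (adjusted p = 8.78e-06). G6pc, which releases free glucose, was at 74, 92.2 and 86.9 CPM against 0.0461 to 0.323 CPM. Of 10 genes of gluconeogenesis and fructose use, 9 were higher in proximal tubule, the mitochondrial Pck2 was not called, and the median was 5.55. Of 28 genes of amino acid breakdown and ammonia production, 25 were higher in proximal tubule, and the median was 6.25 (4.99 with bounds). Gatm, which makes the creatine precursor, was at 353, 694 and 367 CPM against 0.0291 to 0.522 CPM.

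Fatty acid and peroxisome genes differed by less in the middle of the list. Of 38 genes, 32 were higher in proximal tubule, 3 were higher in distal tubule and 3 were not called, with a median of 1.83. Acsm2, a medium-chain acyl-CoA synthetase, was at 905, 1209 and 911 CPM against 0.473, 0.494, 0.597 and 1.2 CPM. Cat, the peroxisomal catalase, was at 331, 374 and 317 CPM against 36, 35.3, 32.8 and 27.7 CPM (3.38 ± 0.15, adjusted p = 1.55e-09). The 3 distal ones were Hadhb at 40.4, 30.7 and 39.8 CPM against 74.8 to 92.3 CPM (-1.17 ± 0.17), Pdk4 at 0.154 to 1.64 CPM against 5.47 to 8.42 CPM, and Hadha. Hadha and Hadhb are the subunits of the mitochondrial trifunctional protein, and Pdk4 is a kinase that shuts off pyruvate oxidation. The Hadha call (-0.64, adjusted p = 0.0111, limma) was lost without proximal replicate 4 (adjusted p = 0.0654) or distal replicate 5 (0.0503).

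Drug, steroid and vitamin D metabolism held 30 proximal and 2 distal genes among 32 that could be tested, with a median of 8.72 (8.46 with bounds). Kap, the kidney androgen-regulated protein, was at 1903, 1189 and 1927 CPM against 0.315, 2.27, 1.52 and 0.277 CPM. Cyp2e1, a cytochrome P450, was at 420, 264 and 603 CPM against 0.0263 to 0.174 CPM. The exceptions were Gsta4, a glutathione transferase for lipid aldehydes, and Ephx1, the microsomal epoxide hydrolase. Gsta4 was at 2.26, 1.62 and 1.45 CPM in proximal and 39, 44.7, 27.8 and 41.6 CPM in distal libraries (-4.43 ± 0.30, adjusted p = 4.06e-08), and Ephx1 was at 0.641, 0 and 0 CPM against 3.93 to 6.57 CPM. Reads of Ugt2b, Ces1, Cyp2j, Acsm and Klk1 family members may be shared between near-identical copies, so the values of Acsm2 and of the kallikreins below are uncertain in that respect.

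Position along the proximal tubule was read from separate lists. All 16 genes of the early proximal segments were higher in proximal tubule, with a median of 10.27, and so were 13 of the 14 testable genes of the straight segment, with a median of 7.12. Among the latter, Acy3, an aminoacylase, was at 438, 443 and 640 CPM against 1.95 to 3.18 CPM. Atp11a, a lipid flippase, was at 101, 124 and 120 CPM against 8.9, 8.22, 9.6 and 4.98 CPM. Slc22a7, an organic anion carrier, Slc22a19, Cyp7b1 and Serpina1f, of the same list of 18, did not pass the filter. It asks for about 10 counts in as many libraries as the smaller group has. Without proximal replicate 7, where it asks for fewer libraries, 17 of the list could be tested and 16 were higher in proximal tubule. Slc22a7 was at 4.4, 1.32 and 0.0881 CPM and Serpina1f at 4.43, 0.0994 and 0 CPM in proximal libraries, with both highest in replicate 4. Slc7a13, the cystine carrier subunit AGT1 of the straight segment, was at 86.2, 79.7 and 34.4 CPM, and the protease Napsa at 57.8, 16.5 and 20.4 CPM, so the proximal libraries differed among themselves in these genes.

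Transcription factors of the proximal tubule were separated in the same direction. Hnf4a (ENSMUSG00000017950, chr2:163506808-163572910), a nuclear receptor required for proximal tubule maturation, was at 102, 75.3 and 106 CPM in proximal and 0.0263, 0.0291, 0.124 and 0.0461 CPM in distal libraries (10.58 ± 0.65, adjusted p = 2.25e-08). Maf was at 46.8, 108 and 49.7 CPM against 0.368 to 0.622 CPM, and Nr1h4, the bile acid receptor FXR, was at 56.9, 40.2 and 32 CPM against 0.341 to 1.08 CPM. Of 10 testable factors 7 were higher in proximal tubule, with a median of 3.52, 2, Sox6 among them, were higher in distal tubule, and Cebpa was not called. The Sox6 call (-0.67, adjusted p = 0.016, limma) was lost without proximal replicate 4 (0.083), distal replicate 5 (0.0643) or distal replicate 8 (0.0504).

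Since HNF4 factors bind many proximal tubule promoters, the promoters of the named genes were searched for their letters. RefSeq promoters (GRCm38.p6, 250 bases before to 50 after each start) were searched on both strands for CAAAGTCCA, an HNF4 motif. They were searched in the same way for TAATNATTA, the core of an HNF1 motif. Of all 27025 promoters, 0.555% held the HNF4 motif and 0.714% the HNF1 motif. HNF1 matches lay before Cubn, Acsm2 and Cltrn, called higher in proximal tubule, and also before S100g and Tmem72, called higher in distal tubule. Only 9444 of 13833 tested symbols had a promoter in the table, fewer than 80%, so a comparison of shares between gene sets is void and is not made. The window of 57 bases around the match before Slc3a1, the cystine carrier subunit described above, is shown with the motif in capitals because Slc3a1 and Hnf4a were both proximal here, and it lies wholly before the annotated start.
Slc3a1, plus strand of chr17:85028284-85028340: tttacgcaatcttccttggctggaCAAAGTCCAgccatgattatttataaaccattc
A match of letters is no evidence that a factor binds there.

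The salt transport programme of the distal convoluted tubule was present in all 4 distal knockout libraries. Slc12a3 (ENSMUSG00000031766, chr8:94329201-94366214), the thiazide-sensitive sodium chloride cotransporter, was at 843, 610, 767 and 710 CPM in distal libraries and had 2 counts in all proximal libraries together. The pooled ratio of distal to proximal was 44655, with an exact counting interval of 12362 to 368739 (adjusted p = 7.74e-09, limma). Wnk1, a kinase that regulates this cotransporter and whose short form is made in the distal convoluted tubule, was at 1369, 1092, 1191 and 1214 CPM against 20, 32.4 and 26.1 CPM (-5.55 ± 0.18). Wnk4, Klhl3, Kcnj10 and Bsnd were read next, chosen after their values were seen because they complete the pathway. Wnk4 was at 25.8 to 45.1 CPM in distal and 1.81 to 3.35 CPM in proximal libraries, and Klhl3, which marks WNK kinases for degradation, was at 77.4 to 126 CPM against 2.36 to 2.98 CPM. Kcnj10, the basolateral potassium channel, was at 89.8 to 118 CPM against 1 count in all proximal libraries. Bsnd, the chloride channel subunit barttin, had no count in any proximal library and was at least 362-fold higher in distal tubule, from the limit of 3 counts per library.

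Of 21 genes of thiazide-sensitive transport and the WNK pathway, 16 were higher in distal tubule, none in proximal tubule, and 5 were not called, among them Oxsr1, Cul3, Kcnj16 and Fxyd2, with a median of -3.58. In wild type 19 were higher in distal and 1 in proximal tubule. Oxsr1, Cul3 and Fxyd2 were called in wild type alone, with wild-type differences of -0.39, 0.27 and -0.69, and none passed the test of a different segment difference between genotypes.

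Calcium and magnesium genes gave some of the widest separations in these libraries. Klk1, tissue kallikrein, was at 2888, 3222, 2584 and 3152 CPM in distal and 0, 0 and 0.11 CPM in proximal libraries (adjusted p = 3.01e-09). Calb1, the calcium buffer calbindin-D28k, was at 813, 1124, 685 and 711 CPM against 0, 0 and 0.176 CPM. S100g, calbindin-D9k, was at 893, 1104, 731 and 1015 CPM against 1.56, 0.572 and 1.56 CPM (-9.66 ± 0.37). Slc8a1, the sodium-calcium exchanger that returns calcium to the blood, was at 854 to 1100 CPM against 0.0279 to 0.447 CPM. Trpv5, the apical calcium channel (named after its values were seen), was at 33.7, 37.3, 28.1 and 29.8 CPM with no proximal count, at least 431-fold higher. Kl, the FGF23 co-receptor klotho, was at 618 to 909 CPM in distal and 164 to 180 CPM in proximal libraries (-2.19 ± 0.16). Pth1r, the parathyroid hormone receptor, was the exception among the 12 calcium genes at 53.8, 39.3 and 68.7 CPM in proximal and 12.2 to 24.3 CPM in distal libraries (1.61 ± 0.25). In all, 10 calcium genes were higher in distal tubule and Atp2b1 was not called, with a median of -8.52 (-7.70 with bounds).

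Of 11 testable magnesium genes 6 were higher in distal tubule, with a median of -1.74. Trpm6, the apical magnesium channel, was at 49.5, 39.6, 39.6 and 38.7 CPM in distal and 0.0836, 0 and 0.022 CPM in proximal libraries (adjusted p = 1.3e-07). Egf, the hormone precursor that activates this channel, was at 627, 456, 593 and 409 CPM against 0.0836 to 0.522 CPM. Its receptor Egfr ran the other way, at 18.1, 40.7 and 24 CPM in proximal and 2.91 to 5.44 CPM in distal libraries (2.73 ± 0.30, adjusted p = 3.68e-06).

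The aldosterone-responsive genes of the late distal nephron were present beside these. Kcnj1, the potassium channel ROMK, was at 188, 199, 195 and 196 CPM in distal libraries with no proximal count, at least 2599-fold higher. Scnn1g, a subunit of the epithelial sodium channel, was at 36.3, 66.1, 60.4 and 52.5 CPM with no proximal count, at least 720-fold higher. Scnn1a, the subunit shared with other sites, was at 76.3 to 110 CPM against 0.0497 to 0.308 CPM (-9.21 ± 0.64). Hsd11b2, which protects the mineralocorticoid receptor from cortisol-type steroids, was at 9.72, 45.9, 29.8 and 34.1 CPM, with distal replicate 5 lowest. Of 15 testable genes 8 were higher in distal tubule, with a median of -1.40. The 3 exceptions were Nr3c1, the glucocorticoid receptor, at 21.2, 43.5 and 22.1 CPM against 5.56 to 7.86 CPM, Prss8, a channel-activating protease, at 28.1 to 39.1 CPM against 5.57 to 7.64 CPM, and Kcnma1 at 0.307 to 0.771 CPM against 1 count in all distal libraries.

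Distal transcription factors and epithelial adhesion genes were mostly higher in distal tubule. Tfap2b, a factor needed for distal convoluted tubule formation, was at 61.6, 46.3, 49.1 and 67.2 CPM in distal libraries with no proximal count, at least 750-fold higher. Mecom was at 48.5 to 56.2 CPM against 0.0746 to 0.139 CPM (-8.93 ± 0.56), and Tfcp2l1 was at 223 to 362 CPM against 26.7 to 56.8 CPM (-2.76 ± 0.24). Of 21 testable factors 16 were higher in distal tubule, with a median of -5.50. Emx2 and Pax8 were higher in proximal tubule by 1.20 ± 0.32 and 0.84 ± 0.23, and Irx3 and Pax2 were not called. Of 15 testable keratin and adhesion genes 10 were higher in distal tubule, with a median of -5.94 (-4.98 with bounds). Cdh1, E-cadherin, was at 137, 112, 96.8 and 116 CPM in distal and 16.1, 12.4 and 12.8 CPM in proximal libraries (-3.06 ± 0.18, adjusted p = 1.59e-08). Cdh2, N-cadherin, was the exception, at 1.67, 3.43 and 1.59 CPM in proximal libraries with no distal count, at least 28.8-fold higher. Mal, a membrane sorting protein, was at 205 to 228 CPM against 0.0441 to 0.111 CPM.

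**Figure D2:**
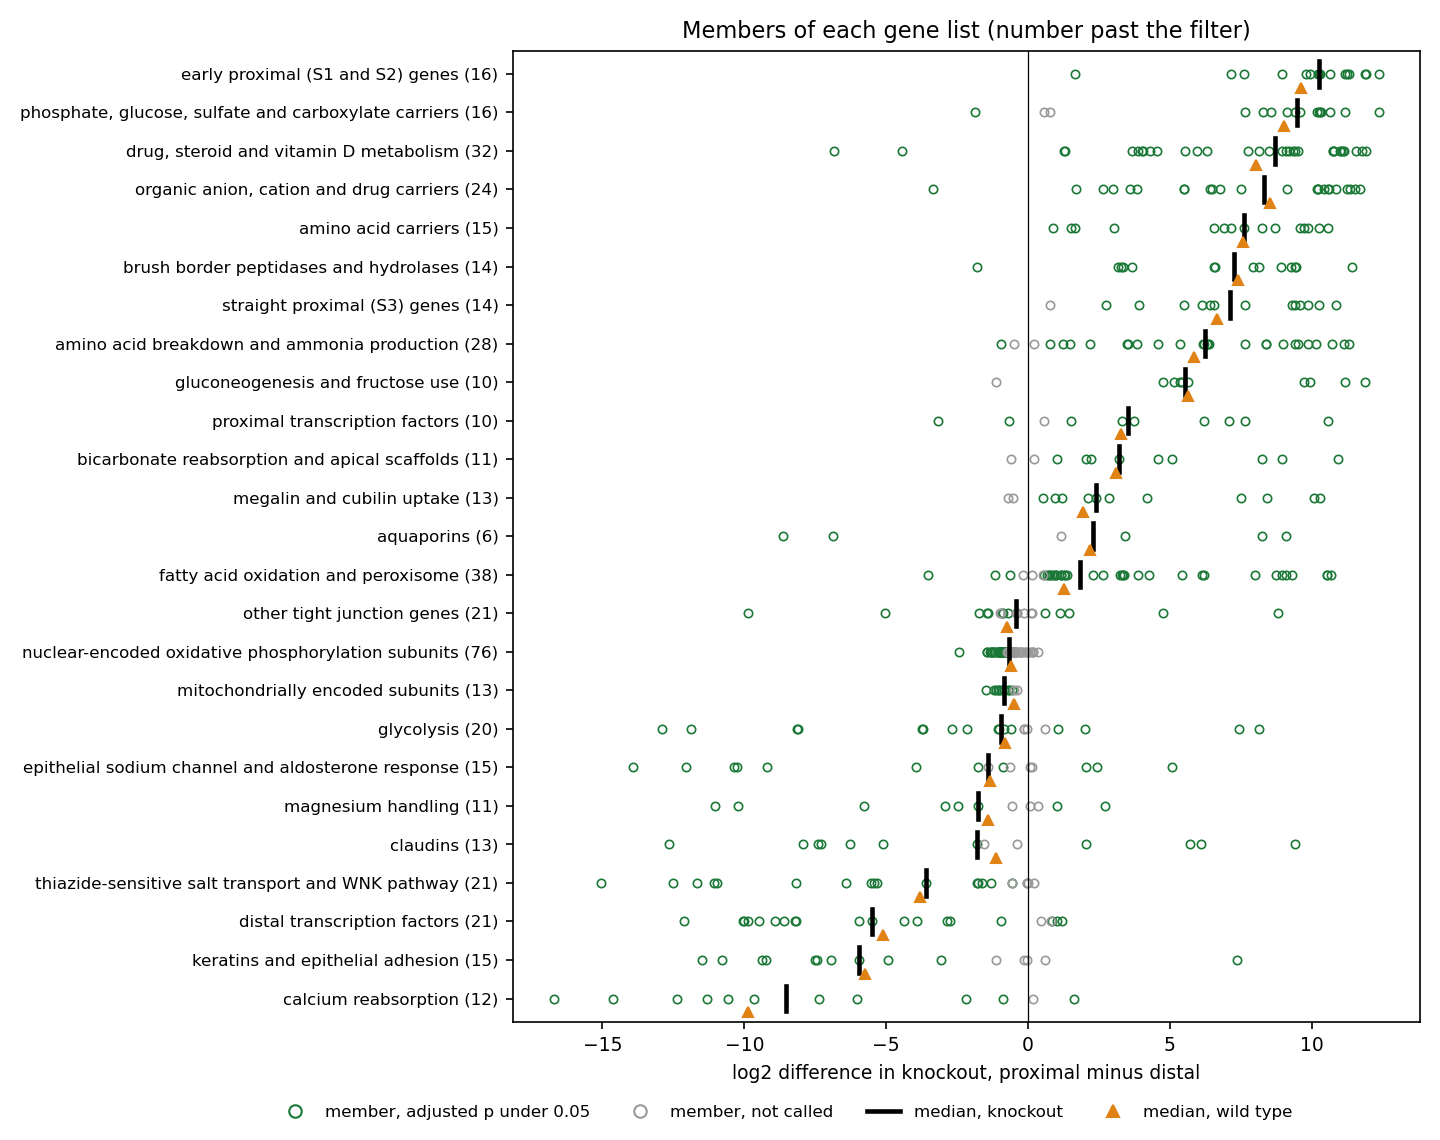
Log2 difference (proximal minus distal, knockout) of each list member past the filter, with green circles for called and grey for other members, bars for the knockout median and triangles for the wild-type median. Transport and metabolic lists of the proximal tubule lie to the right (medians 1.83 to 10.27) and lists of distal transport, factors and adhesion to the left (medians -1.40 to -8.52).

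Claudins other than the targeted one were divided between the segments. Cldn2 (ENSMUSG00000047230, chrX:139800828-139811386), which forms the cation pore, was at 156, 156 and 157 CPM in proximal and 0.0525, 0.378, 0.149 and 0.623 CPM in distal libraries. The difference was 9.42 ± 0.53 (adjusted p = 9.74e-09, limma) against 9.16 in wild type, and the difference between genotypes was 0.24 (95% interval from -1.36 to 1.83, adjusted p = 0.994). Cldn12 was at 29.5, 29.6 and 25.5 CPM in proximal and 6.09 to 7.76 CPM in distal libraries (2.05 ± 0.18). Cldn1, which also marks the parietal cells of the glomerular capsule, was at 5.18, 15.3 and 9.17 CPM against 0 to 0.473 CPM. Cldn18 was at 0.92, 0.398 and 0.793 CPM with no distal count, at least 9.08-fold higher.

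The distal claudins were led by Cldn8, a barrier claudin of the distal nephron, at 64.3, 94, 93.4 and 74 CPM with no proximal count, at least 1089-fold higher. Cldn4, Cldn16 and Cldn3 also had no proximal count and were at least 41.8-fold, 29.6-fold and 6.67-fold higher in distal tubule. Cldn4 was at 2.21 to 4.48 CPM and pairs with Cldn8 in the collecting duct, and Cldn16 was at 1.34 to 3.07 CPM and forms the divalent cation pathway of the thick ascending limb with Cldn19. Cldn7 was at 3.06 to 5.17 CPM against 3 counts in all proximal libraries, a pooled ratio of 156 (53 to 757), and Cldn19 was at 1.2 to 1.86 CPM against 1 count, a ratio of 172 (30.6 to 6826).

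Cldn6 was at 0.572 to 2.08 CPM in distal and 0.174 to 0.925 CPM in proximal libraries (-1.78 ± 0.67, adjusted p = 0.0477, limma). The segments overlapped, and the call was lost without proximal replicate 4 or 5 (adjusted p = 0.169 and 0.179) or distal replicate 5, 6 or 8 (0.094, 0.0795 and 0.104). Cldn15 and Cldn34c1 were not called (-1.54 and -0.37, adjusted p = 0.1 and 0.655). Of 22 listed claudins, 13 could be tested, 4 were higher in proximal and 7 in distal tubule. All 10 that were called in wild type and testable in the knockout were called in the same direction.

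**Figure D3:**
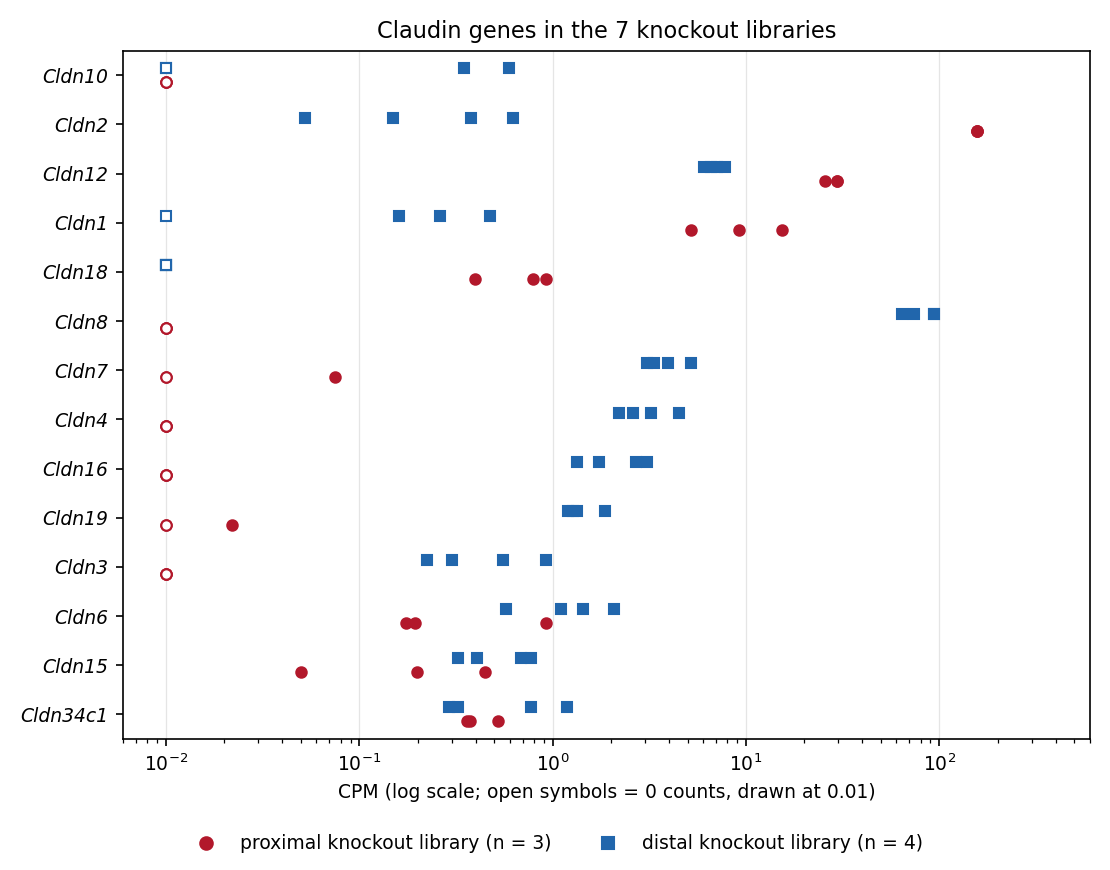
CPM on a log axis of Cldn10 and the 13 claudins past the filter in each knockout library, with circles for proximal, squares for distal and open symbols for 0 counts. Cldn2 sits at 156 to 157 CPM in all proximal libraries and Cldn8 at 64.3 to 94 CPM in all distal ones, while Cldn10 is at 0 in 5 of the 7 libraries.

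Other junction genes were more evenly shared. Ildr2, a tricellular junction protein, was at 26.7, 36.7 and 37.5 CPM in proximal and 0 to 0.124 CPM in distal libraries (8.82 ± 0.72), and its relative Ildr1 (named after its values were seen) had no proximal count at 8.33 to 14.9 CPM in distal tubule. Cgnl1, paracingulin, was at 31.8, 53.5 and 40.1 CPM against 11.2 to 18.9 CPM (1.45 ± 0.22). F11r, the adhesion molecule JAM-A, was at 11.8 to 13.9 CPM against 21 to 27.8 CPM (-0.89 ± 0.18). Of 21 genes 5 were higher in proximal tubule, 8 in distal tubule and 8 were not called, beside 20.4% proximal and 20.2% distal calls over all genes tested. The median was -0.43 against -0.72 in wild type. Marveld2, Jam2, Amotl1, Amotl2 and Magi3 were called in wild type and not in the knockout, Patj the other way round, and none passed the test of the difference between genotypes. The lowest of these adjusted p values was 0.606, for Amotl1, at -0.43 in the knockout and -2.20 in wild type.

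Water channels were divided between the segments. Aqp1, the constitutive proximal water channel, was at 55.1, 55.7 and 41 CPM in proximal and 0 to 0.185 CPM in distal libraries (9.11 ± 0.72, adjusted p = 1.72e-07). Aqp7, an aquaglyceroporin, had no distal count and was at least 51.5-fold higher in proximal tubule. Aqp6, of intercalated cells, had no proximal count and was at least 67.1-fold higher in distal tubule.

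Most testable glycolytic genes were higher in distal tubule. Slc16a7, the monocarboxylate carrier MCT2, was at 409, 389, 372 and 419 CPM in distal and 0.111, 0.0994 and 0 CPM in proximal libraries (adjusted p = 2.02e-08). Among glycolytic genes, Hk1 and Pkm (named after their values were seen) were at 14.6 to 19.3 and 50 to 71 CPM in distal libraries and at 0.022 to 0.0836 and 0.0497 to 0.441 CPM in proximal ones. They are the hexokinase and pyruvate kinase of cells that burn glucose. Ldhb was higher in distal tubule (-1.06 ± 0.15), while Ldha was at 170, 94.4 and 225 CPM in proximal and 27 to 51.9 CPM in distal libraries (2.0 ± 0.29, adjusted p = 5.49e-05). Of 20 testable glycolytic genes 12 were higher in distal tubule and 4 (Gapdh, Pklr, Ldha and Slc16a1) in proximal tubule, with a median of -0.93.

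Oxidative phosphorylation differed by small amounts in 1 direction. Of 76 nuclear-encoded subunits 45 were higher in distal tubule and none in proximal tubule, with a median of -0.66 against -0.59 in wild type. Atp5g1, a subunit of the ATP synthase rotor, was at 186, 278, 158 and 196 CPM in distal and 103, 42.2 and 126 CPM in proximal libraries (-1.28 ± 0.30, adjusted p = 0.00339, limma). Proximal replicate 5 was the lowest library for Atp5g1. The count of 45 fell to 26 without proximal replicate 5 and to 26, 25 and 23 without distal replicate 5, 6 or 8. With the replicate numbers as a block it fell to 5. Among the 13 mitochondrially encoded subunits 11 were higher in distal tubule, with a median of -0.86 against -0.48 in wild type. mt-Co1, the core of cytochrome oxidase, was at 60003, 64471, 48350 and 50172 CPM in distal and 18716, 17852 and 23056 CPM in proximal libraries (-1.48 ± 0.14, adjusted p = 1.25e-06). The share of counts from nuclear protein-coding genes, 13.7 to 18.5% in proximal and 8.02 to 10.1% in distal libraries, moved with these genes, and its part in the result was not tested. With total counts outside mitochondrial genes as the scale, 53 nuclear-encoded and 13 mitochondrially encoded subunits were higher in distal tubule, and the median over all genes moved from -0.04 to -0.14.

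Outside the fixed lists, the largest differences included several secreted or membrane proteins. Sfrp1, a Wnt inhibitor, was at 458, 359, 291 and 432 CPM in distal libraries with no proximal count, at least 5148-fold higher. Defb1, an antimicrobial peptide, was at 309, 445, 216 and 260 CPM, at least 4112-fold higher. Abca13, a lipid transporter, was at 961, 804, 1182 and 701 CPM against 0.0557 to 0.154 CPM (-12.97 ± 0.75). On the proximal side Glyat, which joins glycine to acyl groups, was at 132, 121 and 138 CPM against 0 to 0.124 CPM (11.47 ± 0.67, adjusted p = 1.5e-08).

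Markers of neighbouring segments were higher in the distal libraries. Thick ascending limb markers summed to 368 to 496 CPM in distal and 0.725 to 1.42 CPM in proximal libraries, and 8 of 8 that could be tested of 11 were higher in distal tubule, with Cldn14 at 0 in all 7 libraries. Umod, the limb's secreted protein, was at 233, 219, 270 and 190 CPM, and Slc12a1, its sodium-potassium-chloride cotransporter, was at 70.8, 59.8, 125 and 61.4 CPM, highest in replicate 7. Connecting tubule and principal cell markers summed to 97.2 to 168 CPM against 2.93 to 6.38 CPM, and 6 of 8 testable ones of 10 were higher in distal tubule, with Avpr2 at 0. Intercalated cell markers summed to 165 to 284 CPM against 0.279 to 0.683 CPM, and 14 of 14 testable ones of 15 were higher in distal tubule. Atp6v0d2, a proton pump subunit of these cells, was at 31, 52.2, 46 and 45.3 CPM with no proximal count, at least 583-fold higher. The part of these cells in the distal values of Kcnj1, Scnn1g, Hsd11b2, Cldn3, Cldn4, Cldn16, Cldn19, Aqp6 and the other genes they share with the distal convoluted tubule was not tested.

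Markers of cells outside the tubule were low in both segments. Endothelial markers summed to 26 to 47.4 CPM in proximal and 60.7 to 63.6 CPM in distal libraries. Podocyte and parietal markers summed to 11.6 to 22.3 and 12.1 to 14 CPM, with Nphs1 at 0. Stromal markers summed to 0.697 to 1.12 and 7.43 to 13.5 CPM, with Lum at 0. Immune markers summed to 1.52 to 9 and 2.07 to 3.9 CPM, with Cd3e and Cd79a at 0 and the highest value, in proximal replicate 4, made mostly of Cd74 at 6.94 CPM. Red cell genes summed to at most 0.0497 and 7.22 CPM. Injury and dedifferentiation genes summed to 46.6 to 104 CPM in proximal and 598 to 672 CPM in distal libraries, with Lcn2 and Krt20 at 0. Of 9 testable injury genes 7 were higher in distal tubule, namely Clu, Spp1, Sox9, Fos, Egr1, Hspa1a and Hspa1b, and Vcam1 and Jun were not called. Clu, a chaperone, was at 216 to 330 CPM against 0.139 to 0.242 CPM. Spp1, a secreted phosphoprotein, was at 316 to 417 CPM against 41.1 to 94.7 CPM. The Egr1 call was lost without proximal replicate 7 (-0.97, adjusted p = 0.0912, limma). In wild type 8 of 9 were higher in distal tubule. What lies behind these differences was not tested.

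**Figure D4:**
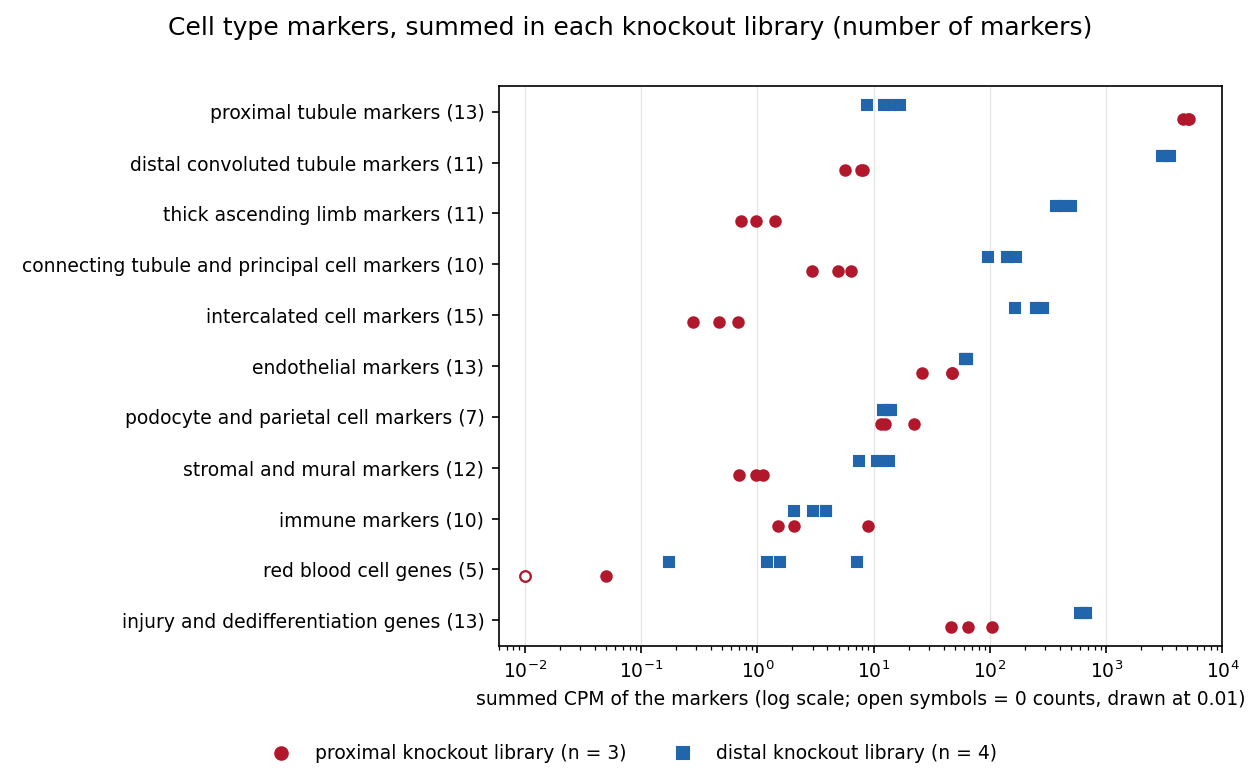
Summed CPM on a log axis of each cell type's markers in the 7 knockout libraries, with circles for proximal and squares for distal libraries and an open symbol for 0 counts. The markers of the dissected segments do not overlap, at 4591 to 5189 against 8.74 to 17 CPM and 2999 to 3516 against 5.64 to 8.17 CPM, while podocyte and immune sums overlap between the segments.

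The segment programmes of the knockout were then set beside those of the wild type, which were fitted on 8 separate libraries. There, 3210 of 13616 genes tested (23.6%) were higher in proximal and 3421 (25.1%) in distal tubule. Among genes tested in both genotypes, 2432 were higher in proximal tubule in both, which is 89.3% of the 2722 knockout calls and 77.7% of the 3129 wild-type calls. In distal tubule 2320 were called in both, 88.6% of 2619 and 69.2% of 3353. The median log2 difference of the shared genes was 2.12 in the knockout and 1.95 in wild type on the proximal side, and -2.03 and -1.97 on the distal side. Across the 13207 genes tested in both, Pearson r of the log2 differences was 0.964 and Spearman rho 0.881, as a description over genes that are not independent replicates. Of 4666 genes that differed at least 2-fold in wild type, 97.6% had the same sign in the knockout.

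The genes called in wild type and not called in the same direction in the knockout were 697 on the proximal and 1033 on the distal side. Of these, 656 and 956 had the same sign in the knockout, with median knockout differences of 0.46 and -0.49 against 0.73 and -0.88 in wild type. Conversely, 290 and 299 genes were called in the knockout and not in the same direction in wild type. Of these, 274 and 273 had the same sign in wild type. A pair of genes within these counts were called in both genotypes in opposite directions, and both were named after their values were seen. Lpl, lipoprotein lipase, which frees fatty acids from circulating fat, was at 68.3, 103 and 54.6 CPM in proximal and 45.9 to 50.6 CPM in distal knockout libraries (0.59 ± 0.20, adjusted p = 0.0299, limma). In wild type it was lower in proximal tubule (-0.82, adjusted p = 0.00742), and the difference between genotypes was 1.38 (adjusted p = 0.494). AC134468.1, a processed pseudogene, was at -0.59 in the knockout and 0.87 in wild type (adjusted p = 0.0389 and 0.017, limma), with an adjusted p of 0.494 for the difference.

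**Figure D5:**
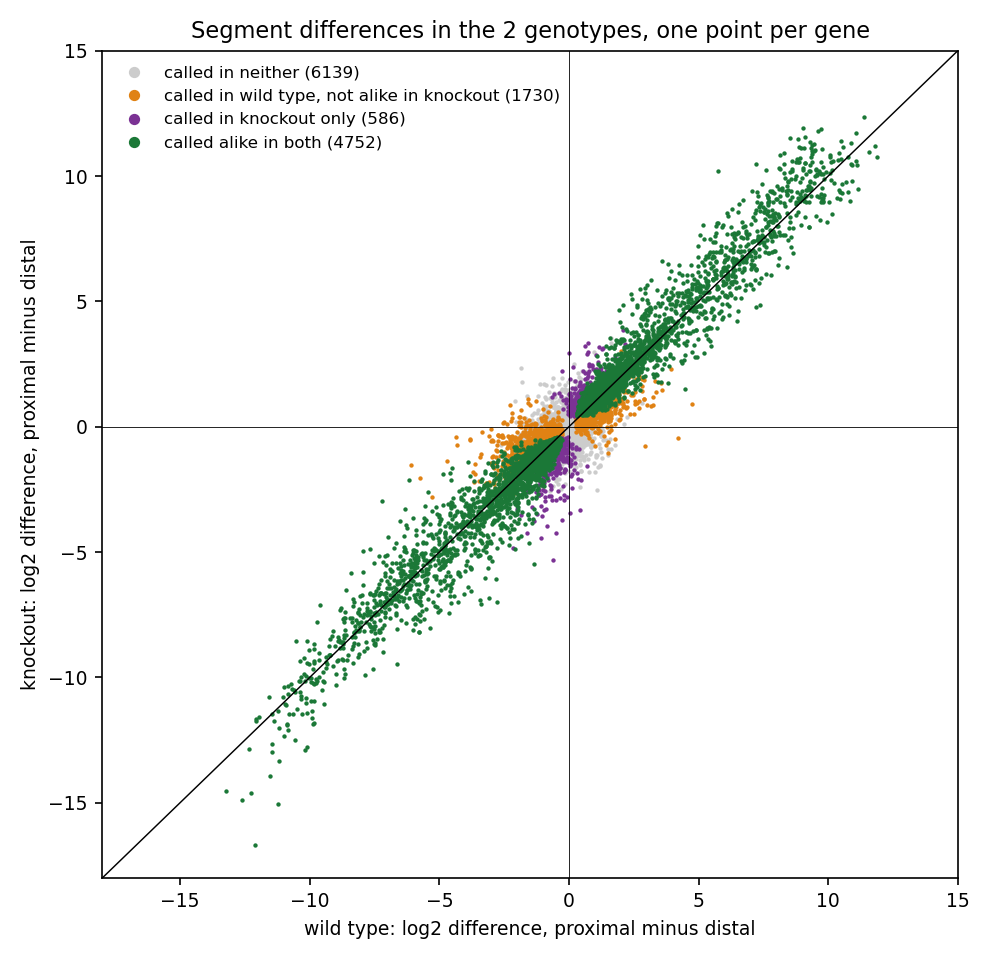
Log2 difference between proximal and distal tubule in wild type (horizontal) and knockout (vertical), with a point per gene tested in both and the line of equality drawn. The 4752 genes called alike in both genotypes lie along the line, with the 1730 called in wild type and not alike in the knockout nearer to the centre.

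The test of the difference itself passed for no gene. Of 15279 genes, 0 (0%) had an adjusted p under 0.05 for a segment difference that differs between genotypes (limma), 849 (5.56%) had an unadjusted p under 0.05, and the lowest adjusted p was 0.118. That lowest value was for Gsta4, at -4.43 in the knockout and -2.29 in wild type. Klk1 (-16.70 and -12.10) and Spp1 (-2.60 and -1.54) also stood among the genes more distal in the knockout, and Tnfsf10, the death ligand TRAIL (0.07 and -1.89), Tmem45b (-2.95 and -7.22), Ly6e, an interferon-induced membrane protein (-1.17 and -2.59), and Atp11a (3.91 and 2.21) among those more proximal in the knockout. Their adjusted p values lay between 0.118 and 0.606, so none of these differences passed the test. Cldn10 had a difference of -9.29 with an unadjusted p of 0.000474 and an adjusted p of 0.494. With limma-trend in place of voom weights, 10 genes passed, Cldn10, Gsta4, Klk1, Kcnj1, Slc12a3, Sfrp1 and Tmem45b among them. Leaving out a library gave at most 1 gene: Gsta4 without wild-type proximal replicate 2 or distal knockout replicate 7 (adjusted p = 0.0328 and 0.0169), Tnfsf10 without wild-type proximal replicate 6 or proximal knockout replicate 7 (0.0368 and 0.024), and AC134468.1 without wild-type proximal replicate 3 (0.0366).

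By list, the proximal programmes were called alike nearly throughout. All 13 carriers of phosphate, glucose, sulfate and carboxylates, 15 amino acid carriers, 21 organic ion carriers, 11 megalin and cubilin genes, 13 brush border genes, 9 gluconeogenic genes and 24 amino acid breakdown genes that were called in wild type and testable in the knockout had the same call. The calls lost in the other proximal lists were Slc9a3r2 among bicarbonate genes (9 of 10 kept), Cpt1a and Acsl1 among fatty acid genes (32 of 34 kept) and Cebpa among transcription factors (9 of 10 kept). Among distal lists the numbers were 16 of 20 for thiazide-sensitive transport, 8 of 10 for magnesium, 10 of 10 for calcium, 10 of 11 for the aldosterone response, 19 of 20 for transcription factors and 11 of 11 for adhesion. Subunits of oxidative phosphorylation kept 45 of 63 nuclear-encoded calls and 9 of 10 mitochondrially encoded ones. No list held a gene that passed the test of the difference between genotypes.

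Endothelial markers stood out from these lists by their counts. All 12 that could be tested were higher in distal tubule in wild type, with a median of -1.83, and 4 (Ptprb, Eng, Esam and Ehd3) in the knockout, with a median of -0.72. Kdr, a receptor for vascular growth factor, was at 8.2, 10.2 and 4.47 CPM in proximal and 10.5 to 11.8 CPM in distal knockout libraries (-0.61, adjusted p = 0.0685, limma, against -1.63 in wild type). Flt1, its relative, was at 8.78, 7.51 and 5.42 CPM against 9.23 to 10.8 CPM (-0.46, adjusted p = 0.0929, limma, against -1.58). Both were named after their values were seen, and in both the proximal knockout libraries stayed below the distal ones. For 8 of the 12 the unadjusted p of the difference between genotypes was under 0.05, beside 5.56% of all genes, and for 0 the adjusted p was. These are markers of the same cell type in the same few libraries. They are not independent of each other, so their number adds no separate evidence. The 4 knockout calls fell to 0 without proximal replicate 7, to 1 without distal replicate 5 or 6 and to 2 without distal replicate 8, and rose to 6 without proximal replicate 5. The summed level of all 13 markers was 16.5 to 32 CPM in wild-type proximal and 64.3 to 93.1 CPM in wild-type distal libraries, so the ranges of the genotypes overlapped in proximal tubule and did not in distal tubule.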

How the data were processed

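RNA of microdissected tubule pools was sequenced from total RNA with Nextera XT libraries, per the labels' protocols. The deposited values are whole-number counts per gene that the authors made, with GRCm38, STAR 2.5, CASAVA 1.8 and DESeq2 1.24.0 named per the submitters' processing notes. The program that counted reads, its annotation and its use of strand were not given in the sources used here. Antisense, overlapping and near-identical genes are therefore uncertain. The deposited table has all-digit column names, so its other, unlabelled unit was read from the values: they are whole numbers and were treated as counts. It holds 54752 genes, of which 24945 have no count.

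Segments were compared within each genotype, and between genotypes over all 15 libraries, with limma 3.58.1 (voom, R 4.3.3) and Benjamini-Hochberg adjustment at 0.05. TMM scaling trimmed 30% of the log ratios and 5% of the intensities, and the prior count was 0.5. The design had no covariates. The column numbers of wild-type proximal replicate 6 and knockout proximal replicate 7 lie apart from those of all other libraries. What these numbers stand for was not known, and whether they bear on the results was not tested. Genes needed about 10 counts in as many libraries as the smaller group has, and 15 counts in total. A group with 0 counts was set to a limit of 3 counts per library for bounds, and groups with 1 to 3 counts got a pooled ratio with an exact 95% interval; both cover counting error only. On simulated counts of 13475 genes for the knockout comparison, 59% of 100 genes changed 2-fold and 98% of 100 genes changed 4-fold were called, with 3 false calls. The changed genes were all well counted and far fewer than the genes called in the data, and the spread followed a smooth trend. These rates therefore need not hold for the data, and the test between genotypes was not simulated.

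The comparison and the 36 gene lists were chosen with earlier results of these data known. Named genes were Cldn10, every testable claudin, in each list up to 4 called members with the highest mean CPM and every member called against the list's direction, the 8 largest differences over all genes in each direction with a mean of at least 20 CPM, and the 5 smallest p values in each direction between genotypes. Some of them are not reported here, and genes outside this rule were chosen after their values were seen, also where that is not repeated. Alternatives were other scalings, filters, weights, thresholds, a limma-trend model, a fit of all libraries, a replicate block and leaving out each library. Python 3.11.15, pandas 2.3.3 and scipy 1.17.1 were used for summaries.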

Additional observations from a re-analysis of the deposited data

Results flagged for a closer look

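In 9 of 160 named genes (5.62%) a distal knockout library lay far from the other 3 by Dixon's 95% criterion. Chance alone gives about 1 in 20 such groups for normally spread values, which values near 0 counts are not. Distal replicate 7 was the library in 7 of them. Slc12a1 was at 125 CPM there against 59.8 to 70.8 CPM, and Mpp5, a polarity scaffold, at 18.8 CPM against 14.8 to 15.2 CPM. The proximal genes Slc5a12 (0.149 CPM against 0 to 0.0231), G6pc (0.323 against 0.0461 to 0.0581), Abcc2 (0.199 against 0 to 0.0291) and Pdzk1 (0.0498 against 0) were also highest in that library, and so was Kcnma1 (0.0249 against 0). Pdzk1 and Kcnma1 rest on 2 counts and 1 count, below the limit of 3 counts (0.0746 CPM in that library). With the others at 0, any count would be flagged. Distal replicate 5 stood apart for Trpm6, at 49.5 CPM against 38.7 to 39.6 CPM, and for Ildr2, at 0 against 0.115 to 0.124 CPM.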

How the results depend on the processing

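The replicate block moved the knockout counts most, to 1721 genes higher in proximal and 1517 in distal tubule. Same-numbered libraries did not deviate together (correlations of -0.141 and -0.296 in the knockout and -0.029, -0.0556 and 0.0478 in wild type). So few libraries cannot show whether same-numbered ones share an animal. The numbers were therefore not taken as pairs in the main fit, and the block was kept as an alternative. For the difference between genotypes, 1 gene passed with total counts outside mitochondrial genes, 1 with no filter, 1 with the replicate block, 10 with limma-trend and 0 to 1 with a library left out. Cldn34c1 ranged from -0.62 to 0.0141 with a library left out and changed sign without distal replicate 5. Scaling to total counts outside mitochondrial genes gave 2540 and 3112 knockout calls, so that 44.9% in place of 50.3% were higher in proximal tubule. Of 157 named genes tested in the knockout, 124 kept call and direction in every setting, 31 lost the call somewhere (28 of them under the block), and Cldn15 gained it under the block. With a library left out, 2574 to 2962 proximal and 2271 to 2613 distal genes were called. The cause of these changes was not tested. The depth limits genes with few counts, such as Cldn10 in distal tubule.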
